A study of Mus musculus with 22 samples.

Results

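Tbx21, Cdhr1, Doc2g and Eomes, which mark projection neurons of the olfactory bulb, and Omp and S100a5, which mark olfactory sensory neurons and the axons they send to the bulb, were followed through a brain cut into fractions along 3 body axes. The 6 genes were chosen by name, with earlier results of these data known, out of 20129 gene symbols with a RefSeq-identified probe on the array, and all 6 were among the 16691 genes well above background somewhere in every series. Total RNA was measured in 22 fractions of 3 brains, all of male C57BL/6J mice (an inbred strain), with no treatment or allele named. One mouse gave the coronal series of 10 fractions, another the horizontal series of 6 and the last the sagittal series of 6. The titles of the samples and the study place them at day 7 after birth, although the labels' entry for age says 3 days. Each fraction was 1 array, so no fraction had a replicate, a comparison of single fractions has no test, and no value holds the spread between animals. The labels do not say which end of the brain is fraction 1. Of 12 Hox genes, which mark the hindbrain, 11 were highest in coronal fraction 1.

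In the olfactory bulb, axons of sensory neurons of the nose end in glomeruli, where mitral and tufted cells, the projection neurons, receive their input and send it on to the cortex, under the control of local inhibitory interneurons. Tbx21 (T-bet) and Eomes (Tbr2) are T-box transcription factors, and in the bulb Tbx21 is used as a marker of mitral and tufted cells. Cdhr1 is a cadherin-related membrane protein of mitral and tufted cells and of photoreceptors. Doc2g belongs to a family of proteins with C2 domains that act at synaptic vesicles. Omp, the olfactory marker protein, is abundant in mature olfactory sensory neurons, whose cell bodies lie in the nose and not in the brain, and S100a5 is a calcium-binding protein of the same neurons. RNA of these neurons can be present in their axons, which reach the bulb through the olfactory nerve layer.

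A level below is log2 of the processed intensity of a probe minus the 75th percentile of its array, so that 0 is the brightness of that percentile and 1 unit is a doubling. Levels of different genes come from different probes and were not compared with each other. A fraction is a mixture of cells, and fewer cells of a type cannot be told apart from less RNA per cell.

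All 6 genes had their highest coronal level in fraction 10. For Tbx21 the lowest of the 10 coronal levels was -4.76, the median -3.85 and the highest 2.87, and fractions 8, 9 and 10 stood at -3.73, -1.18 and 2.87. It was not well above background in fractions 5 and 6, the only such readings among the 6 genes on the 22 arrays. Tbx21 thus lay near the detection limit over most of the brain, stood higher in fraction 9 and much higher in fraction 10.

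Cdhr1 was measured in every fraction, with a lowest coronal level of -2.20, a median of 0.37 and a highest of 5.16. Its levels in fractions 8, 9 and 10 were -0.07, 1.89 and 5.16. The low end of Cdhr1 was in fraction 2, and fractions 4 to 7 lay close together, between 0.36 and 0.79. Doc2g ranged from -3.59 in fraction 4 to 2.83 in fraction 10, with a median of -2.88. Doc2g stood apart from the other 5 genes between fractions 7 and 8, where it was at -2.54 and then -0.32, a difference of 2.22, while the others differed by -0.97 to 0.23 over the same step. That step was wide for many probes, 15.6% of which were at least 1 log2 unit higher in fraction 8 than in 7. In fraction 9 Doc2g was at -0.58, about as in fraction 8.

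Eomes had a lowest level of -1.95 in fraction 8, a median of -0.80 and a highest of 3.38 in fraction 10. It was the member with a second region of high readings, at -0.01, 0.99 and 0.22 in fractions 1, 2 and 3. Omp had a lowest level of -3.23, a median of -2.21 and a highest of 2.40. Its levels in fractions 1 to 9 all lay between -3.23 and -1.79, so that fraction 10 stood 4.19 above the next, which was fraction 1. S100a5 ran from -3.65 in fraction 8 through -1.40 in fraction 9 to 3.44 in fraction 10, with a median of -2.99. Its fractions 1 to 8 spanned less than 1 log2 unit, between -3.65 and -2.86.

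**Figure D1:**
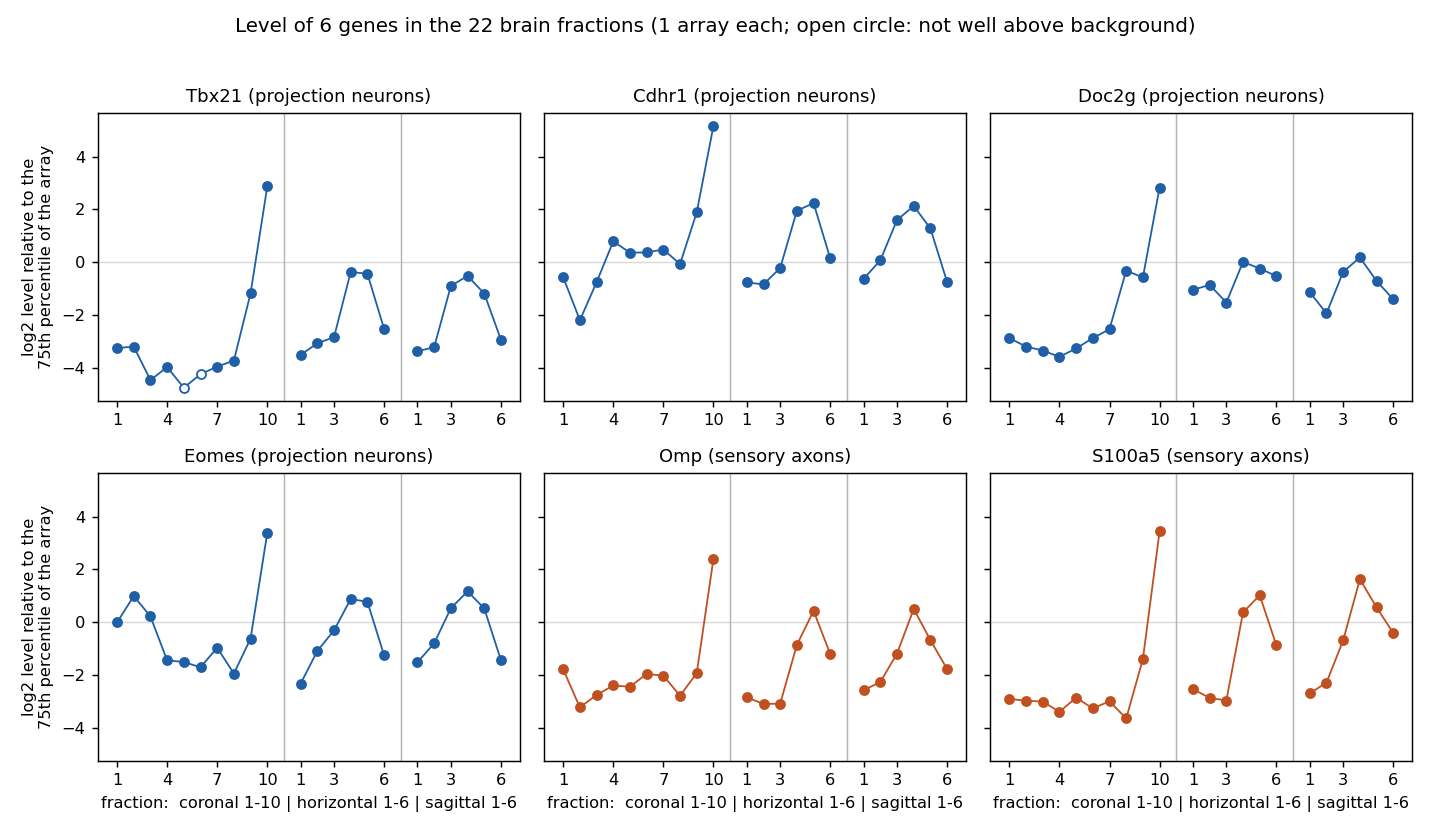
Log2 level (vertical axis, relative to the 75th percentile of the array) of the 6 genes in the coronal, horizontal and sagittal fractions (horizontal axis, in order of fraction number). Each point is 1 array and an open circle is a reading not well above background; every gene is highest in coronal fraction 10 and has a lower peak in horizontal fraction 4 or 5 and in sagittal fraction 4.

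On the linear scale, fraction 10 held most of the signal of each gene summed over the 10 coronal fractions, after each array was scaled to its 75th percentile. Its share was 89.3% for S100a5, 88.0% for Tbx21, 75.5% for Doc2g, 75.1% for Cdhr1, 74.3% for Omp and 61.3% for Eomes, where an even spread would give 10%. The smaller share of Eomes went with its readings in fractions 1 to 3. Fraction 10 pooled slabs 10 and 11, while every other coronal fraction was 1 slab.

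Sequences of 250 bases before the RefSeq gene start (build GRCm38.p6) were at hand for 5 of the genes, Tbx21, Cdhr1, Doc2g, Eomes and S100a5. Tbx21 and Eomes encode T-box factors, so the sequences were searched on both strands for GGTGTG, the core bound by that family. It was present before the starts of Cdhr1 and Doc2g, and in 16.3% of 32851 windows of the same length. Those windows are shown with that of Tbx21, which holds no match. They are written in the direction of the gene, at chr11:97115332-97115581 on the minus strand for Tbx21, chr14:37098348-37098597 on the minus strand for Cdhr1 and chr19:4003135-4003384 on the plus strand for Doc2g. Capitals mark the match, which lies on the opposite strand in both genes and begins 214 bases before the start of Cdhr1 and 237 before that of Doc2g.
Tbx21: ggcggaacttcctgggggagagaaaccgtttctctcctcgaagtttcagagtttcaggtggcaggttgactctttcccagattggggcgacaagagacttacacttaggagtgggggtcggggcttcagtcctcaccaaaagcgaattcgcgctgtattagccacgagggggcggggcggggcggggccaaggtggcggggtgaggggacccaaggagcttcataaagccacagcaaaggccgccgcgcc
Cdhr1: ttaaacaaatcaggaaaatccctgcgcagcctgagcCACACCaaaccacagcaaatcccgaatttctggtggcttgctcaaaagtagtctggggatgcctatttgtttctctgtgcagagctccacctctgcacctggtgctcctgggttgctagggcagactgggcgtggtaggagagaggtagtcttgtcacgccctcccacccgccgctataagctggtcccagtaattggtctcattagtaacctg
Doc2g: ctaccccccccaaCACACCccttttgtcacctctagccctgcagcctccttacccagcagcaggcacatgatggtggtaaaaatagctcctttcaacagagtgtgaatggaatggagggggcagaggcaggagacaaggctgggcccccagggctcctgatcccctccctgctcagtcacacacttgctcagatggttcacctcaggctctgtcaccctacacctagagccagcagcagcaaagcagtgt
TATAAA, the TATA box, and TAATTA, a homeodomain core, had no match in the 5 windows on either strand, and over all windows they were present in 12.4% and 4.84%. In base composition the Tbx21 window held 16 CpG pairs and 60.8% G and C, the Cdhr1 window 6 pairs and 53.2%, the Doc2g window 0 and 57.6%, the Eomes window 8 and 46.4% and the S100a5 window 3 and 46%, against medians of 6 pairs and 52.4% over all windows. A match of letters is not a binding site, and binding was not measured.

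In coronal fraction 10 against fraction 9, both read on the same slide, all 6 genes were at least 1 log2 unit higher. Of the 39621 probes tested, 4.17% were that much higher and 8.4% that much lower. S100a5 had the widest difference, from -1.40 to 3.44, or 4.84 on the log2 scale (28.7-fold). Omp came next with a difference of 4.33 (20.1-fold), then Tbx21 with 4.05 (16.5-fold) and Eomes with 4.00 (16.0-fold). Doc2g differed by 3.42 (10.7-fold) and Cdhr1 by 3.27 (9.64-fold). All 6 differences have 1 direction, and their sizes come from 1 array on each side.

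Over 14530 genes well above background in both fractions the median difference was 0.01, with quartiles of -0.29 and 0.30, and 22 genes were higher by 3 log2 units or more. The 6 genes held places 1, 2, 4, 5, 12 and 15 in that order. Otop2, which encodes an otopetrin proton channel, was in place 3, from -3.97 in fraction 9 to 0.13 in fraction 10, a difference of 4.10. For scale, the median residual SD of a probe around its fitted curve was 0.376, which gives 0.532 for a difference of 2 arrays. Residuals mix array scatter with change between positions that the curve misses, and without replicates these cannot be told apart. With the genes' own residual SDs the figure for 2 arrays was 0.833 for Doc2g to 1.71 for S100a5. Each gene's difference between fractions 10 and 9 was above its own figure. A gap between the differences of 2 genes draws on 4 readings, for which the same reckoning gives 0.752 at the median. Each pair of neighbours in the order of the 6 genes is closer together than that, so their order is not settled. Under 6 other ways of processing the arrays each gene stayed at least 2.97 higher, with ranges of 4.19 to 5.01 for S100a5, 3.73 to 4.50 for Omp, 3.46 to 4.22 for Tbx21, 3.57 to 4.18 for Eomes, 3.06 to 3.59 for Doc2g and 2.97 to 3.44 for Cdhr1. Another scaling moved the difference of all genes together, by between -0.30 and 0.17 at the median.

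**Figure D2:**
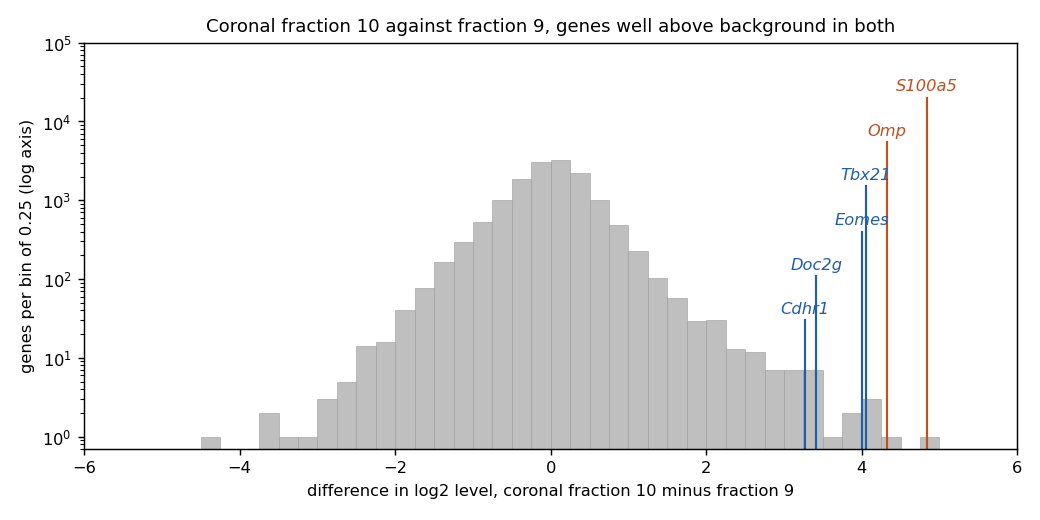
Number of genes (vertical axis, log scale) by difference in log2 level between coronal fractions 10 and 9 (horizontal axis, bins of 0.25) for the 14530 genes well above background in both. Vertical lines, whose heights carry no value, mark the 4 projection neuron genes (blue) and the 2 sensory axon genes (orange), from 3.27 for Cdhr1 to 4.84 for S100a5, all in the right tail.

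The step from fraction 8 to fraction 9 was smaller than the step to fraction 10 for each gene. Fraction 9 was above fraction 8 by 2.55 for Tbx21, 2.25 for S100a5, 1.95 for Cdhr1 and 1.32 for Eomes, against 0.86 for Omp and -0.27 for Doc2g. Of all probes tested, 4.09% were at least 1 log2 unit higher in fraction 9 than in 8. Fractions 9 and 8 were read on different slides, and the part of the slide in that step was not tested. Tbx21, Cdhr1 and S100a5 were higher in fraction 9 than in any of fractions 1 to 8. Eomes was at -0.62 in fraction 9 and -0.97 in fraction 7, with its lowest level between them, and Doc2g was already at -0.32 in fraction 8.

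Change along each axis was tested with limma in 1 model over all 22 arrays with a linear and a quadratic term per series. All 6 genes changed along the coronal axis, where 19.8% of the 39621 probes tested passed at an adjusted p under 0.05. The adjusted p from limma was 0.000155 for Doc2g, 0.000774 for Tbx21, 0.00857 for Cdhr1, 0.0104 for Eomes, 0.0121 for S100a5 and 0.0258 for Omp. Omp did not pass with arrays centred on their median (adjusted p from limma 0.0854), with quantile normalization (0.0648), without scaling (0.0705) or without the arrays whose spike-in slope was out of range (0.0605), and Eomes did not with arrays centred on their median (0.0673). With the coronal arrays alone 2 genes passed, Tbx21 and Doc2g, where 1.60% of all probes did. The fitted curve spanned 7.01 log2 units for Tbx21, 6.14 for Doc2g, 5.97 for S100a5, 5.00 for Cdhr1, 4.20 for Omp and 3.98 for Eomes. The residual SD of the 6 genes, 0.589 for Doc2g to 1.21 for S100a5, was above the median of 0.376 over all probes. A quadratic curve cannot follow a step in 1 fraction closely, and the part of this in the residuals was not tested.

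The coronal calls rested on fraction 10. Without it 19.7% of all probes passed. Doc2g passed the test, with an adjusted p from limma of 0.0079, and the other 5 did not, from 0.0534 for Eomes to 0.873 for Omp. Fractions 9 and 10 shared a slide with the sagittal series while fractions 1 to 8 lay on other slides, and with slide as a block 1 of the 6 genes passed, Doc2g with an adjusted p of 0.0151, where 4.03% of all probes did. The direct difference of fractions 10 and 9 lies within 1 slide and has no test.

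Along the horizontal axis the 6 genes peaked in fractions 4 and 5, and along the sagittal axis all 6 peaked in fraction 4. None of them passed the limma test of either axis. Tbx21 had a lowest horizontal level of -3.51, a median of -2.69 and a highest of -0.37, and its levels in fractions 4 and 5 were -0.37 and -0.44. Cdhr1 ran from -0.84 through a median of -0.04 to 2.24, and Eomes from -2.33 through -0.70 to 0.88. Doc2g was the flattest, from -1.53 to 0.01. Omp ran from -3.10 through a median of -2.03 to 0.43, and S100a5 from -2.97 through -1.71 to 1.02. Between fractions 3 and 4 the level differed by 3.34 for S100a5, 2.47 for Tbx21, 2.23 for Omp, 2.17 for Cdhr1, 1.54 for Doc2g and 1.19 for Eomes, always upwards. Horizontal fractions 1 to 3 were also the arrays whose spike-in slope was out of range, and the part of this in the step from 3 to 4 was not tested.

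In the horizontal series the adjusted p from limma lay between 0.0901 for Eomes and 0.555 for Doc2g, with 0 of 6 called where 6.57% of all probes were. At an unadjusted p under 0.05 the count was 2, Tbx21 and Eomes. Eomes passed without coronal fraction 1 (adjusted p from limma 0.0392) or without coronal fraction 10 (0.0408).

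Omp, S100a5 and Cdhr1 were highest in horizontal fraction 5 and Tbx21, Doc2g and Eomes in fraction 4. Omp was at -0.86 in fraction 4 and 0.43 in fraction 5, a difference of 1.29 that only 0.704% of 14779 genes exceeded. S100a5 was at 0.37 and 1.02, a difference of 0.65 that 3.50% of genes exceeded. Cdhr1 differed by 0.29, Tbx21 by -0.07, Eomes by -0.11 and Doc2g by -0.24. All genes had a median of 0.01 with quartiles of -0.18 and 0.19. The difference of each of the 6 genes was within the figure for 2 arrays at its own residual SD, 1.42 for Omp and 1.71 for S100a5. That figure also holds change that the curve misses. With 1 array per fraction, the horizontal fraction of the peak is not settled for any of them. These are 2 arrays of 1 mouse, and no test of the difference between the groups of genes was made.

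Sagittal levels were highest in fraction 4 for each gene. Tbx21 had a lowest level of -3.38, a median of -2.06 and a highest of -0.52. Cdhr1 had -0.75, 0.68 and 2.13, and Eomes -1.52, -0.14 and 1.17. Doc2g had -1.94, -0.92 and 0.18. All 4 projection neuron genes fell off about evenly to both sides of fraction 4, with fraction 3 above fraction 5 by 0.01 for Eomes to 0.34 for Doc2g and fraction 6 against fraction 1 at -0.27 to 0.44.

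Omp had a lowest sagittal level of -2.58, a median of -1.48 and a highest of 0.50, and S100a5 had -2.70, -0.55 and 1.63. For the sensory axon genes, fraction 3 was below fraction 5 by 0.51 for Omp and 1.24 for S100a5, and fraction 6 was above fraction 1 by 0.81 for Omp and 2.29 for S100a5. Of these 4 differences, that of S100a5 between fractions 6 and 1 was above the figure for 2 arrays at the gene's own residual SD. The other 3 were within it. That figure is not array scatter alone, and no test of the difference between the groups of genes was made. The labels do not name the sides. Fraction 6 pooled slabs 7 to 9 and fraction 1 slabs 1 and 2, and fractions 1 and 3 had a spike-in slope out of range.

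For the sagittal linear term, which runs from 1 side to the other, 0 of 6 genes were called by limma, where 10.2% of all probes were, with adjusted p of 0.210 for S100a5 to 0.913 for Cdhr1, and 0 genes at an unadjusted p under 0.05. For the quadratic term, the middle against both sides, the estimate was below 0 for all 6, which is a higher middle, and 0 of 6 were called, where 0.0303% of all probes were. The adjusted p from limma ran from 0.173 for Eomes to 0.471 for Doc2g, and the count at an unadjusted p under 0.05 was 3, Tbx21, Cdhr1 and Eomes. This test called 12 of 39621 probes.

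**Figure D3:**
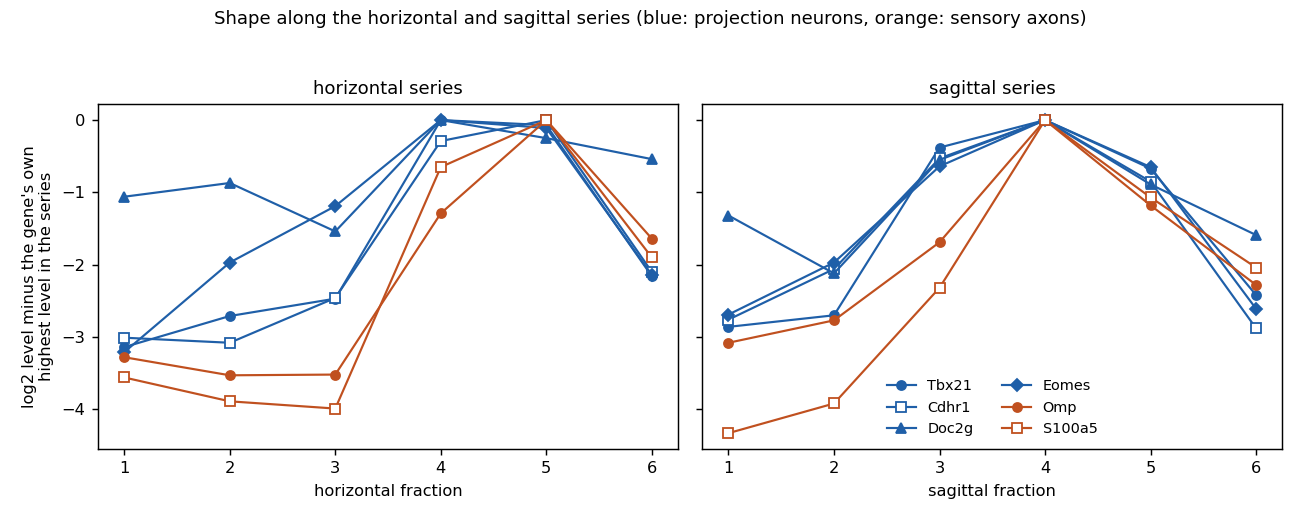
Log2 level minus the highest level of the same gene in the series (vertical axis) by horizontal fraction (left) and sagittal fraction (right), 1 array per point, with projection neuron genes in blue and sensory axon genes in orange. Omp and S100a5 are lower than their peak in horizontal fraction 4 by 1.29 and 0.65 and in sagittal fraction 3 by more than the projection neuron genes.

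The 3 places of the peaks were taken from the levels of the 6 genes themselves, so that all 6 meet them by choice. They were then counted over all genes as a description. Of the 16691 genes, 11.4% had their highest coronal level in fraction 10, 34.9% their highest horizontal level in fraction 4 or 5, and 9.11% their highest sagittal level in fraction 4. All 3 held for 114 genes, or 0.683%, the 6 included. Of the 22 genes at least 3 log2 units higher in coronal fraction 10 than in 9, the horizontal and sagittal peaks of 12 were in these places, 6 of which were the members and 6 other genes.

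Similarly expressed transcripts were sought with Pearson's r over the 22 fractions, the measure the study uses with a threshold of 0.85. The points share 3 mice and 4 slides, coronal fraction 10 has a wide pull on r, and r is given as a description. For Omp the closest of 16690 other genes was S100a5 (r = 0.933), followed by Nppa (0.914), the atrial natriuretic peptide gene, and Cdhr1 (0.886). For S100a5 they were Omp (0.933), Ms4a15 (0.924), a gene of a family of 4-pass membrane proteins, and Tbx21 (0.921). Tbx21 was closest to Ms4a15 (0.922), S100a5 (0.921) and Nppa (0.918). Doc2g was closest to Tbx21 (0.869), Sp8 (0.860), a zinc finger factor of bulb interneurons, and Ms4a15 (0.807).

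Eomes and Cdhr1 had no member among their 3 closest genes. Eomes was closest to Lgr5 (0.931), a receptor for R-spondins, Lpar3 (0.879), a lysophosphatidic acid receptor, and Ctbp2 (0.843), a transcriptional corepressor and synaptic ribbon protein. Cdhr1 was closest to Gm13889 (0.913), Pcbp3 (0.904), an RNA-binding protein, and Apold1 (0.904). Genes above the threshold of 0.85 numbered 12 for Cdhr1, 8 for Omp, 7 for Tbx21, 6 for S100a5, and 2 each for Doc2g and Eomes. The order of neighbours with r this close is not settled.

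Among the 15 pairs of the 6 genes r ran from 0.510 for Doc2g with Eomes to 0.933 for Omp with S100a5, with a median of 0.799, and 5 pairs were above 0.85. Without coronal fraction 10 the median was 0.681, the lowest 0.212 and the highest 0.901, the last again for Omp with S100a5. The genes beside the 6 on the chromosome did not share the step into coronal fraction 10. Of 13 adjacent or overlapping protein-coding genes 10 were measured and 8 had a difference. The differences ran from -1.04 for Capn5, a calpain gene that overlaps Omp, to 0.58 for Golga4 beside Eomes. Of these 8, 0 were at least 1 log2 unit higher, where 4.17% of all probes tested were, so 8 genes are too few to set them apart from other genes. S100a4 and S100a6, which flank S100a5 and belong to the same family, differed by -0.11 and -0.17.

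Eomes is also known in intermediate progenitors of the cortex and in unipolar brush cells of the cerebellum and brainstem. Its mean level was 0.40 over coronal fractions 1 to 3 and -1.52 over fractions 4 to 8, a difference of 1.92, where the other 5 genes had differences of -1.56 for Cdhr1 to 0.49 for Tbx21. A second Eomes probe, well above background on 15 of 22 arrays, followed the first with r = 0.966. It stood at -2.97, -2.14 and -2.31 in fractions 1 to 3 and at -3.97, -4.21 and -3.66 in fractions 4, 5 and 7, and it was 4.06 higher in fraction 10 than in fraction 9. Both probes thus showed the raised readings at both ends of the series.

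Of 6 unipolar brush cell genes, 3 had their highest coronal level in fractions 1 to 3, and of 6 intermediate progenitor genes all 6 did, where 41.9% of the 16691 genes had it there. Otx2, a homeobox factor, was at 2.60, 3.49 and 2.93 in fractions 1, 2 and 3, and Neurod1, a factor of newly formed neurons that cerebellar granule cells also carry, at 1.83, 3.08 and 2.85. Otx2 was at -0.57 and Neurod1 at -1.30 in fraction 10. Both changed along the coronal axis (adjusted p from limma 0.00108 and 0.00169), and of each list of 6 limma called 2, against 19.8% of all probes. Whether these cells carried the Eomes signal of fractions 1 to 3 was not tested. Fractions 1 and 2 had a spike-in slope out of range, and fraction 3 did not.

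**Figure D4:**
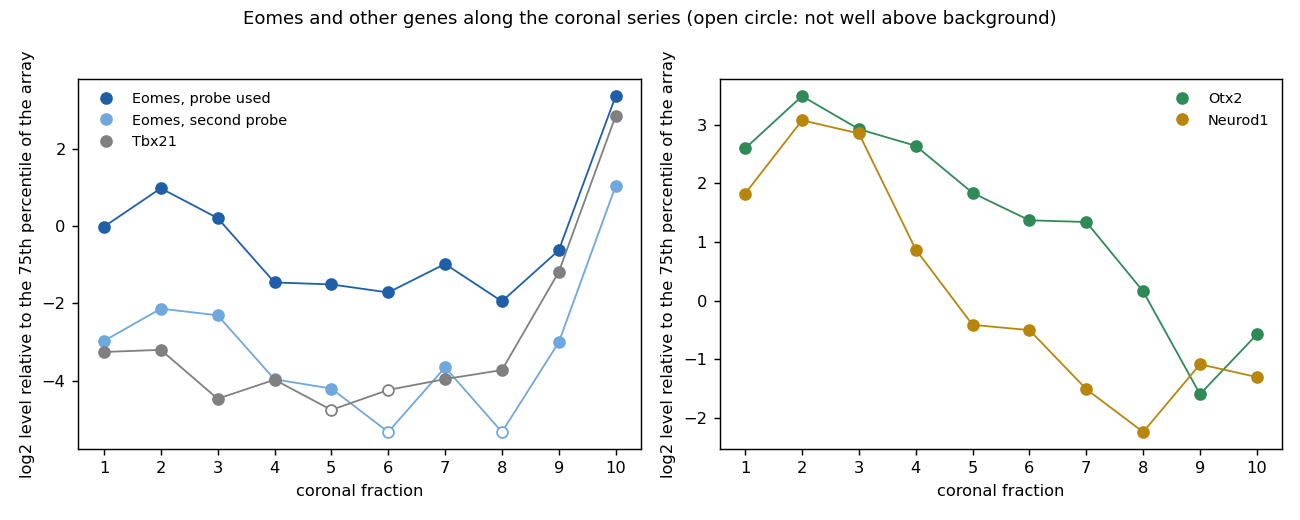
Log2 level (vertical axis) by coronal fraction (horizontal axis) of the 2 Eomes probes and Tbx21 (left) and of Otx2 and Neurod1 (right), with an open circle for a reading not well above background. Both Eomes probes have raised readings in fractions 1 to 3 as well as in fraction 10, and Otx2 and Neurod1 are highest in fraction 2, with Otx2 still at 2.64 in fraction 4 and Neurod1 at 0.87.

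Other genes of the olfactory system were read in the same 2 coronal fractions. Of all probes, 4.17% were at least 1 log2 unit higher in fraction 10 and 8.4% were as much lower. Those shares are over all 39621 probes tested, with or without a difference. The counts of a list are over its genes with a difference, so the 2 are not on the same base. The counts of genes that limma called along the coronal axis stand beside the 19.8% of all probes it called. Of 13 other mitral and tufted cell genes with a difference, 6 were that much higher and 3 lower, with a median of 0.16. The number higher was 3 without scaling and 4 with normexp background correction. Nmb, which encodes the peptide neuromedin B, differed by 3.47 and Lbhd2 by 3.47. Shisa3, a membrane adaptor protein, was at least 9.07-fold higher, since it was not well above background in fraction 9. The widest negative difference was -1.77 for the potassium channel subunit Kcng1. The list holds genes of cortical neurons too: Tbr1, a T-box factor of both, was in 2 of the lists and differed by -1.51.

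Of 15 bulb interneuron genes, 11 were at least 1 log2 unit higher, 1 was lower, and the median was 1.61. Calb2, the calcium-binding protein calretinin, differed by 2.75, Th, which makes the precursor of dopamine, by 2.64 and Tshz1, a zinc finger factor, by 2.60. Calb1 was at least 2.20-fold lower, not being well above background in fraction 10. Limma called 11 of these 15 along the coronal axis and 7 of the 13 mitral and tufted cell genes. The test has no direction: 7 of the 11 and 1 of the 7, Nmb, had their highest coronal level in fraction 10.

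Most other genes of olfactory sensory neurons did not share the step of Omp and S100a5. Of 16 with a difference, 2 were at least 1 log2 unit higher and 2 lower, with a median of -0.29. The number lower was 0 with arrays centred on their median and 4 without scaling. Stoml3, a stomatin-like protein of their cilia, was at least 4.33-fold higher, Gng8, a G-protein subunit, was 2.05 higher on the log2 scale and the transcription factor Ebf2 0.70. Gap43, a protein of growing axons in many neurons, had the widest negative difference, -1.16. The transduction genes Gnal, Adcy3 and Cnga2, several of which brain neurons also express, differed by -1.03, -0.48 and -0.63. Gng13, a G-protein subunit of the same list, differed by 0.53. Limma called 7 of 15 along the coronal axis, 0 of which were highest in fraction 10. Over the whole list 2 genes were highest there, Stoml3 and Gng13.

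Odorant receptor genes, each of which a sensory neuron expresses in choosing 1 of many, were mostly not detected. Of 1068 with a probe, 111 were well above background in fraction 10 and 144 in fraction 9, with 81 to 461 over the 22 arrays. Of these 1068, 280 were among the genes well above background somewhere in every series. Of 170 with a difference, 16 were at least 1 log2 unit higher and 53 lower, and the median was -0.30. These 170 are a small part of the list, and the shares of all probes are not on that base. With normexp background correction the counts were 6 higher and 4 lower, and the cause of the change was not tested. The widest were Olfr1420, Olfr512 and Olfr464, at least 22.7-fold, 17.4-fold and 11.9-fold higher, none of which was well above background in every series.

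Of 8 genes of olfactory ensheathing glia, which wrap the sensory axons, 5 were at least 1 log2 unit higher, 0 lower, and the median was 1.36. Foxd3, a forkhead factor of neural crest, was at least 17.5-fold higher, Frzb, a secreted Wnt antagonist, differed by 2.28, and the narrowest difference was 0.20 for the neurotrophin receptor Ngfr. Limma called 7 of 8 along the coronal axis, 5 of which were highest in fraction 10. Markers of the other cells of the nasal epithelium were read to see whether tissue of the nose lay in fraction 10. Of 7 with a difference, 1 was higher and 1 lower, the median was -0.15, and limma called 3 of 9 along the coronal axis. Without scaling 0 were higher and 2 lower, and with normexp 1 was higher and 0 lower. Cyp2g1, a cytochrome of the supporting cells, and the keratin Krt8 were not well above background in either fraction. Cbr2, a carbonyl reductase, differed by 1.26, the water channel Aqp5 by 0.32, Trp63, a factor of basal cells, by 0.22 and Aldh1a7 by -1.35. Their summed level was 3.75 in fraction 9 and 4.04 in fraction 10, of which the Trp63 probe made up 75.1% and 71.3% on the linear scale, and the part of such cells in the Omp and S100a5 readings was not tested.

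Lists of cortical and striatal genes, some of which bulb cells express too, had negative medians. Of 10 cortical projection neuron genes, 0 were at least 1 log2 unit higher and 4 lower, with a median of -0.68, and Cux1 at 0.25, Bcl11b at 0.16 and Cux2 at 0.01 were the highest. Of 8 striatal neuron genes, 0 were higher and 4 lower, with a median of -1.01, from -1.91 for the dopamine receptor Drd1 to 0.68 for the enkephalin precursor Penk, with Adora2a at 0.01 and Drd2 at -0.61 next below Penk. Limma called 9 of 10 and 4 of 8 along the coronal axis, of which 1 and 0 were highest in fraction 10. Every gene of both lists was well above background in fraction 10.

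Of the 5 unipolar brush cell genes with a difference, 2 were at least 1 log2 unit higher, Calb2 and Otx2 (1.02), and 0 lower, with Plcb4 at 0.99. The number higher was 3 with arrays centred on their median and 1 with normexp, with quantile normalization or without scaling. Of the 5 intermediate progenitor genes none passed 1 log2 unit, with Btg2 at 0.85, Insm1 at 0.75, Neurog1 at 0.07 and Neurod1 at -0.22. Hoxd3 was the exception among the Hox genes, at least 18.4-fold higher in fraction 10, where it had its highest level. Hoxb5 was at least 1.66-fold higher and Hoxb6 differed by -0.14, and the other 9 were not well above background in either fraction.

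**Figure D5:**
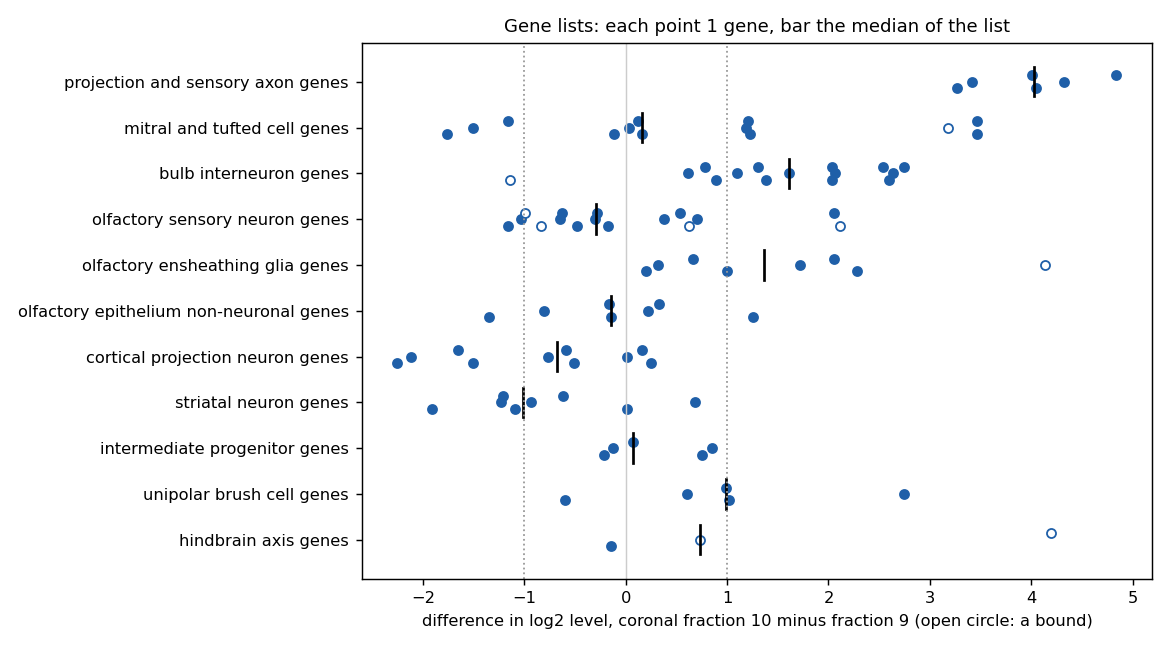
Difference in log2 level between coronal fractions 10 and 9 (horizontal axis) for each gene of the lists (rows), with an open circle for a bound, a bar for the median of the list and dotted lines at 1 log2 unit. The 6 projection and sensory axon genes lie between 3.27 and 4.84, bulb interneuron and ensheathing glia genes have medians of 1.61 and 1.36, and cortical and striatal genes have medians of -0.68 and -1.01.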

How the data were processed

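Total RNA of each fraction was hybridised to an Agilent mouse array read in 1 colour and designed on mm9. The intensity values were deposited as scanner output: per the file headers, the authors extracted them with Feature Extraction 10.10.1.1, which subtracts background and gives a processed intensity per spot. A second deposited file gives log2 values normalised per array. Compared with the scanner output, 99.899% of them were no more than 0.02 from log2(processed intensity) less the array's 75th percentile (column medians -2.90 to -1.86). The scale, centring and direction of that table were so settled, and it served as an alternative.

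From the scanner files, control and outlier spots (131 to 187 per array) were left out, no spot was saturated, and spots of 1 probe were averaged for 55600 probes. Values were put on the same scale (75th percentiles of 259.7 to 603.9 before the log). A probe was detected where at least 1 of its spots was marked well above background, which held for 29605 to 41965 probes per array, and the test took the 39621 probes detected somewhere in every series. Of 28087 probes with a RefSeq identifier 26553 were named through a RefSeq table of another assembly, used for names, for which genes lie side by side and, with its own build, for promoters. A gene was read from its RefSeq-identified probe with the highest median. Change along an axis was tested with limma 3.58.1 in R 4.3.3 (an intercept, slope and quadratic term in slab number for each series, 9 coefficients and 13 residual degrees of freedom, moderated F tests, Benjamini-Hochberg adjustment over all probes tested, threshold 0.05) and was tested on simulated data. Where 1 of 2 fractions alone had a probe well above background, the fold is a bound against the lowest signal well above background on that array or the probe's own, whichever is higher. Differences of single arrays have no test. The genes and lists were chosen with earlier results of these data known. Genes named were the 6 members, the 3 most similar genes of each, the 5 with the widest difference between coronal fractions 10 and 9, and of each list the 3 with the highest and the 1 with the lowest difference. Tbr1, Gnal, Adcy3, Cnga2, Gng13 and the neighbours on the chromosome were added after the values were seen. So were the comparisons of horizontal fractions 4 and 5, of coronal fractions 1 to 3 with 4 to 8 and of peak positions. Trpc2, Prss56 and Cyp2a5 had no RefSeq-named probe. Some genes that this rule picks from the lists are not reported here.

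Alternatives were normexp background correction (offset 50, on the median signal), other scalings, the deposited table, the mean over the probes of a gene, other filters, slide as a block, a spike-in probe as covariate, other curves and leaving out each fraction. Of the 22 arrays 7 had a spike-in slope out of range (0.773 to 0.891 against 0.949 to 1.07 in the others): coronal fractions 1 and 2, horizontal 1 to 3 and sagittal 1 and 3. Coronal fractions 9 and 10 and the sagittal series were on 1 slide, the horizontal series on another, coronal fraction 2 on another and the remaining coronal fractions on the last.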

Additional observations from a re-analysis of the deposited data

Results flagged for a closer look

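In the coronal series the highest of the 10 levels stood apart from the other 9 for 4 genes, by the gap to the next level over the whole range: 0.745 for Omp, 0.682 for S100a5, 0.531 for Tbx21 and 0.49 for Doc2g, against a critical value of 0.466 (Dixon's test) for 10 samples. In each the highest level was that of coronal fraction 10. Of 18 groups of levels examined, 6 genes in 3 series, 4 stood apart, all coronal. For independent draws the test would flag about 5% of groups. That share is no measure here, because the genes were chosen as bulb markers with earlier results known and all 4 values rest on the same array. The 10 fractions are positions along 1 brain and not replicates.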

How the results depend on the processing

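The count of genes at least 1 log2 unit higher in coronal fraction 10 than in 9 was 6 under all 6 alternatives run for it, and no difference changed sign. The count of genes that passed for coronal position, 6, was 1 with slide as a block (Doc2g; 4.03% of all probes), 2 with linear terms alone (Cdhr1 and Doc2g; 7.12%), 2 with the coronal arrays alone (Tbx21 and Doc2g; 1.60%), 4 with arrays centred on their median (7.29%), 5 with quantile normalization (16.8%), without scaling (12.9%), without the 7 arrays with a slope out of range (10.4%) or with the probes detected on all 22 arrays (32.8%), a set that leaves out Tbx21, and 6 with normexp, the deposited table, the mean over probes, no filter, the spike-in covariate or a cubic coronal term (10.8% to 23.2%), the last chosen after seeing the data. Leaving out 1 fraction gave 1 to 6 coronal calls, 1 without coronal fraction 10 (19.7% of all probes), and 0 to 1 horizontal calls, 1 (Eomes) without coronal fraction 1 or 10. Both sagittal counts stayed at 0 under all alternatives run, and the horizontal count under all others. The cause was not tested. Genes of the lists at least 1 log2 unit higher in fraction 10 numbered 3 to 6 over the scalings and normexp for mitral and tufted cells, 9 to 12 for interneurons, 1 to 2 for sensory neurons and 4 to 5 for ensheathing glia. For odorant receptors they numbered 6 with normexp and 11 to 22 over the scalings, and those as much lower 4 with normexp and 48 to 64 over the scalings. The median-signal background stood in for the mean-signal one in normexp. No paired analysis was possible because fraction numbers are positions on different axes in different mice. With 1 array per fraction, the number of arrays limits the precision, and Tbx21 was not well above background in 2 fractions.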

Other observations

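Of 1068 odorant receptor genes, between 187 and 461 were well above background on the 7 arrays whose spike-in slope was out of range and between 81 and 197 on the other 15, so that the ranges overlap. Coronal fraction 10 had 111 and horizontal fractions 4 and 5 had 123 and 94.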
